A study of Mus musculus with 6 samples.

Results

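The genes described here are 48 genes of DNA replication and mitosis, chosen by name from their known roles and not by a measured value. Earlier results of these data were known when the choice was made. The set holds 24 replication genes, from the helicase subunit Mcm2 to thymidylate synthase Tyms, and 24 mitosis genes, from cyclin A2 (Ccna2) to the ubiquitin-conjugating enzyme Ube2c. All 48 were found among the 18857 genes with reads in at least 1 of the 6 libraries, and all 48 had reads in every library.

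Messenger RNA was sequenced from mouse embryonic stem cells (ESCs) of the KH2 line, on a C57BL/6 x 129 background, to ask what blocking Mek or losing Erk does to them. KH2 cells with a wild-type genotype were sequenced untreated and after 48 hours of PD0325901, a small-molecule inhibitor of the kinase Mek, which activates Erk. The other 4 libraries carry the genotype iErk1; Erk KO, an Erk knockout with an Erk1 transgene that depends on doxycycline (Dox). A first culture kept Dox, a second had lacked it for 48 hours, and a pair had lacked it for 96 hours, of which 1 also received PD0325901 over the final 48 hours. The Erk KO culture with Dox is therefore itself a knockout kept on a transgene, not a wild-type control. Each condition is 1 library, so every difference between a pair of libraries has no replicate check. The PD0325901 dose, the Dox dose, the use of feeder cells and the number of clones are not given in the sources used here.

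Replication starts where the origin recognition complex, Cdc6 and Cdt1 load the Mcm helicase onto DNA, and Cdc45 and the GINS complex then switch the helicase on for polymerases that travel with the clamp Pcna. Mitosis is driven by Cdk1 with its cyclins and by the Polo and Aurora kinases, and the spindle checkpoint holds cells until every chromosome is attached. Replication genes are classically transcribed under E2F factors around entry into S phase, and mitosis genes later, from promoters with CHR and CCAAT elements. Regulators of the mitosis genes include the DREAM complex, B-Myb and Foxm1. Mouse ESCs are known for a short G1 phase and for high levels of both gene groups.

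Depth was even. The 6 libraries held 9.05 M to 9.95 M reads assigned to genes. Levels are given as RPKM, read counts divided by transcript length and library size, as the authors deposited them. In the Erk check, Mapk3 (Erk1) read 56.4 and 52.8 RPKM in the KH2 libraries, 14.8 in Erk KO cells with Dox, and 6.75 to 9.18 in the 3 libraries without Dox. All 10 ESC markers had reads in every library, with a summed level of 2078 to 2737 RPKM. All 18 fibroblast markers also had reads in every library. Their summed level was 451 RPKM in untreated KH2 cells and 2590 with PD0325901, and 173 to 202 in the untreated Erk KO libraries against 885 with PD0325901.

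The promoters of the 2 gene groups differed in the short sequences they carry, and these are shown first. RefSeq promoter windows of 250 bases before to 50 after the transcription start (mouse build GRCm38.p6) were found for 19 replication genes, with 20 windows, and for 19 mitosis genes, with 1 window each. An E2F-like motif (TTTCCCGC, TTTCGCGC, TTTGCCGC or TTTGGCGC, either strand) was present in 45% of the replication windows, 9 of 20, and in 5.26% of the mitosis windows, which is 1 of 19, the Cdk1 window. Of all 32851 windows in the table, 2.26% held it. A CHR-like motif (TTTGAA, either strand) was present in 14 of 19 mitosis windows (73.7%) and 2 of 20 replication windows (10%), against 17.9% of all windows. The CHR-like match lay wholly before the start in 7 of these 14 mitosis windows, and in 5252 of the 5878 windows that held it overall in the table. The E2F-like match lay wholly before the start in 7 of the 9 replication windows. A CCAAT box (CCAAT, either strand) was common to both groups, with 16 of 20 replication windows (80%) and 17 of 19 mitosis windows (89.5%) against 37.4% of all. All 14 mitosis windows with the CHR-like motif also held a CCAAT box, a pairing seen in 6.95% of all windows. No motif contains the letters of another. A match describes these letters and does not show that a factor binds there.

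Stretches were taken only from matches that lie before the start. The 4 replication stretches nearest to a start with such an E2F-like match are printed 5′ to 3′ on the gene's own strand with the match in capitals. They lie at chr5:151651209-151651238 (- strand), chr4:108579407-108579453 (+ strand), chr1:128359725-128359772 (- strand) and chr11:98907993-98908040 (+ strand), with 2, 19, 39 and 130 bases between match and start.
Rfc3: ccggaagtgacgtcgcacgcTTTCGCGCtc
Orc1: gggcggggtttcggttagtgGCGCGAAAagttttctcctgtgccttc
Mcm6: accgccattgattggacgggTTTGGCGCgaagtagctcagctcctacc
Cdc6: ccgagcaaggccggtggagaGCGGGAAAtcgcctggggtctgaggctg

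Likewise, 4 mitosis stretches show the CHR-like match in capitals, 9 to 17 bases before the start. They lie at chr10:69352913-69352947 (- strand), chr4:118437344-118437381 (- strand), chr19:37376343-37376381 (+ strand) and chr11:99024190-99024232 (- strand).
Cdk1: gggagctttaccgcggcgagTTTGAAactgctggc
Cdc20: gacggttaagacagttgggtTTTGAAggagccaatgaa
Kif11: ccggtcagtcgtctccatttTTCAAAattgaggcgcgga
Top2a: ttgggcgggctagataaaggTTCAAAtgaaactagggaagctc

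Kif23 and Plk1, whose levels are described further on, had a CCAAT box (capitals) 2 and 9 bases before the start, at chr9:61946800-61946826 (- strand) and chr7:122159401-122159434 (+ strand).
Kif23: ttcgccgcaggcggccgctgATTGGcc
Plk1: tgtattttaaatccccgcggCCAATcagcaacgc

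**Figure D1:**
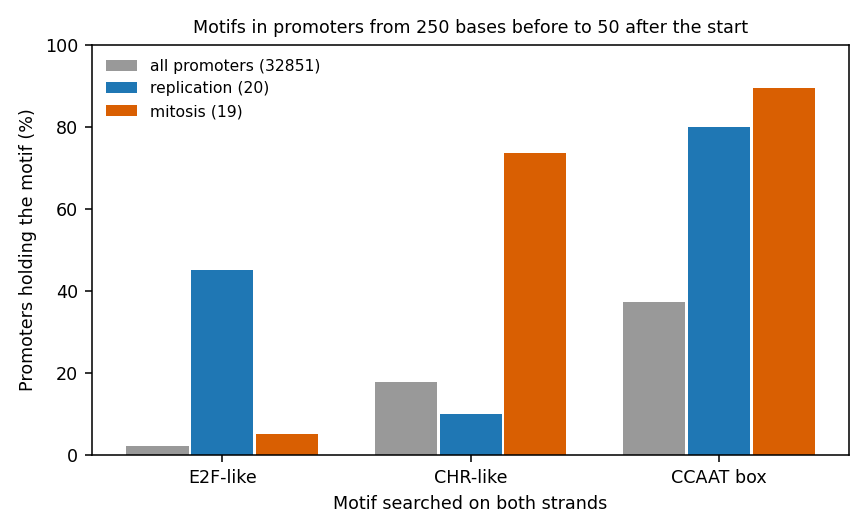
Share of RefSeq promoter windows (y axis, percent) holding each motif (x axis) among 20 windows of replication genes, 19 windows of mitosis genes and all 32851 windows. The E2F-like motif is most frequent in replication windows (45%), the CHR-like motif in mitosis windows (73.7%), and the CCAAT box is frequent in both.

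The 48 genes were abundant in every library. Their mean level over the 6 libraries ran from 11.6 RPKM for the phosphatase Cdc25c to 296 RPKM for Pcna, and each had at least 170 reads in each library. Per transcript length, the clamp Pcna stood highest among the replication genes, at 243 to 329.7 RPKM, and the topoisomerase Top2a highest among the mitosis genes, at 186 to 357 RPKM. The helicase subunits Mcm3 to Mcm7 lay between 99.2 (Mcm4) and 213 RPKM (Mcm5). Cdc6, which loads the helicase, and Tyms were the lowest of the replication genes, at 14.9 to 23.3 and 16.0 to 19.8 RPKM.

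The highest library exceeded the lowest by a median of 1.43-fold for replication genes and 1.63-fold for mitosis genes. Over the 5485 genes in the same range of mean RPKM the median was 1.72-fold. More than 1.5-fold between lowest and highest library was spanned by 9 of 24 replication genes (37.5%) and 19 of 24 mitosis genes (79.2%), against 69.4% of those 5485 genes. Of the 48, 7 (14.6%) spanned more than 2-fold, against 34.1% of the same 5485 genes. They were Mcm2, Mcm10 and Rfc4 among the replication genes and Mad2l1, Cenpa, Kif11 and Kif23 among the mitosis genes, with Mad2l1 the widest at 3.04-fold. As a share of all reads, the replication genes took 0.496% and 0.435% in the untreated and treated KH2 libraries and 0.545% to 0.580% in the Erk KO libraries. The mitosis genes took 0.555% and 0.504% in KH2 and 0.651% to 0.716% in the Erk KO libraries. For both groups, all 4 Erk KO libraries lay above both KH2 libraries.

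The treated KH2 library held the lowest level of the 6 for 18 of 24 replication genes and 14 of 24 mitosis genes, on library totals. The share of all genes lowest in that library was not computed, so these counts have no background beside them. The highest level was in no 1 library: for replication genes it lay in the 96 hour library without Dox for 8 and in the 48 hour library for 6, and for mitosis genes in the 48 hour library for 8 and in untreated KH2 for 7. Replication genes lowest in treated KH2 included the origin subunit Orc6 (74.0 to 109 RPKM), the GINS subunit Gins1 (21.6 to 30.0) and the clamp loader subunit Rfc3 (26.3 to 33.6). The primase and polymerase subunits Prim1 (45.6 to 76.6) and Pola1 (19.5 to 31.6) were also among them. The ribonucleotide reductase subunit Rrm1, which makes DNA precursors, ran from 48.8 RPKM in treated KH2 to 73.5 in Erk KO cells with Dox. Its partner Rrm2 was lowest in that Dox library instead, at 158, and reached 188 at 48 hours without Dox. Among the mitosis genes, treated KH2 was also lowest for the checkpoint kinase relative Bub1b (67.5 to 95.8 RPKM), survivin Birc5 (36.0 to 54.3), the kinetochore protein Cenpf (21.3 to 33.7) and the proliferation marker Mki67 (27.4 to 43.4). The cytokinesis kinesin Kif20a was lowest in untreated KH2, at 55.4 RPKM, and Cdc20, the activator of the anaphase-promoting complex, ran from 98.4 RPKM in treated Erk KO cells to 129 in untreated KH2.

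**Figure D2:**
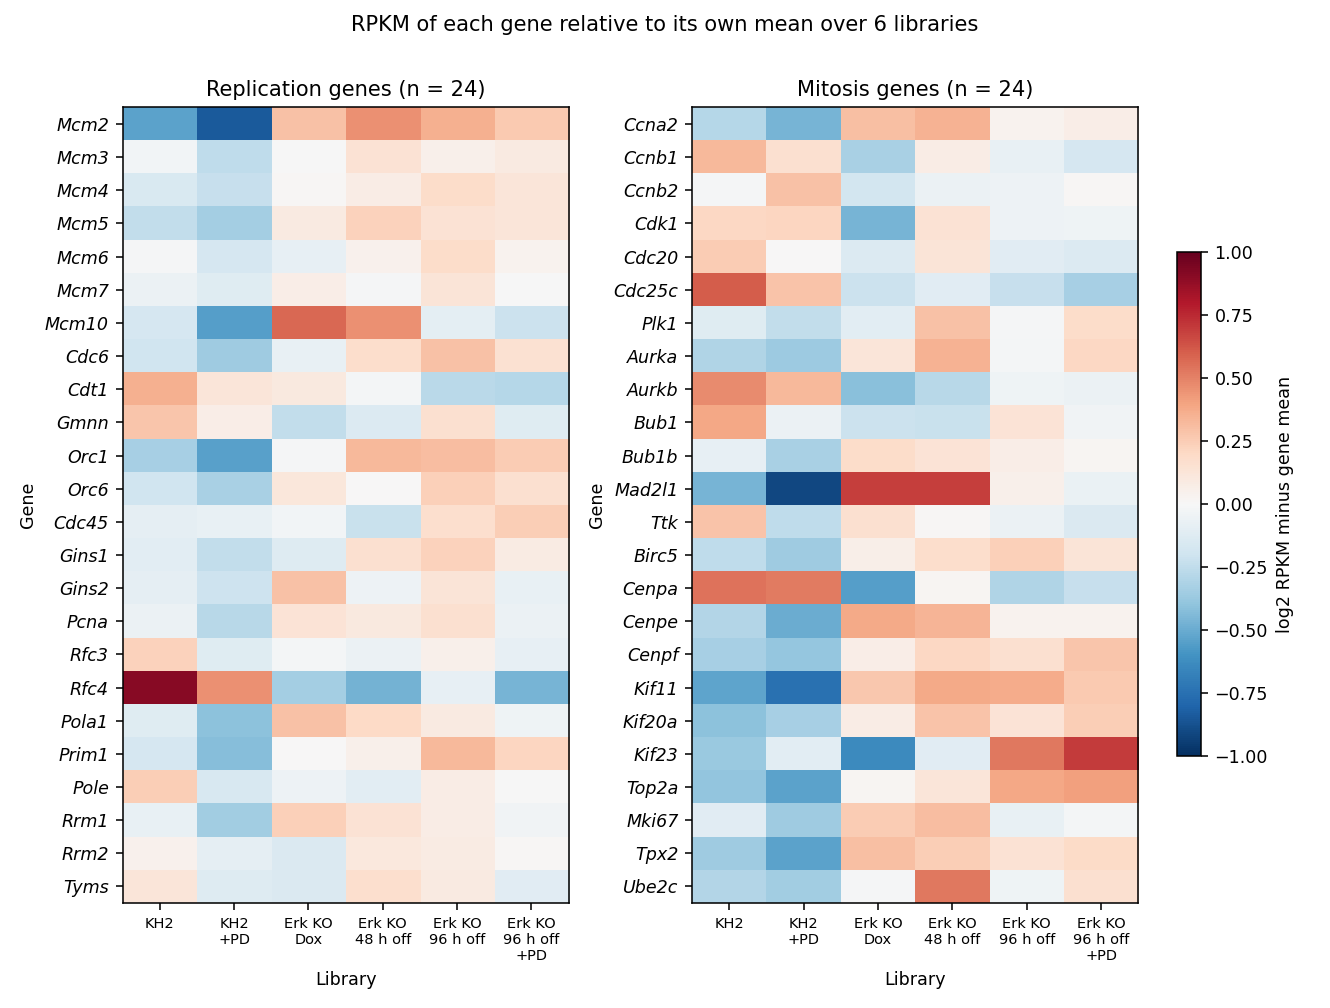
Level of each of the 48 genes (rows) in each of the 6 libraries (columns) as log2 RPKM minus the gene's own mean log2 RPKM, replication genes left and mitosis genes right. The 2 KH2 columns are mostly below the mean (blue), and the Erk KO columns hold genes on both sides of it. Mcm2 and Kif11 are above the mean (red) in all 4 Erk KO columns. Rfc4, Cdc25c, Aurkb and Cenpa are above it in both KH2 columns. Kif23 is highest in the 2 libraries at 96 hours without Dox.

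A difference between a pair of libraries is given as a fold change of reads scaled to library totals, with an exact 95% binomial interval that covers counting error only. It is also given as a log2 ratio of RPKM + 0.5. A gene counted as called when that log2 ratio passed 1.5-fold, the interval excluded 1, the higher library had at least 1 RPKM and the pair at least 20 reads. No p-value goes with such a call. In these bulk libraries, fewer cycling cells and less RNA per cycling cell cannot be told apart. In sentences of 6 levels, the order is untreated KH2, PD0325901-treated KH2, then Erk KO with Dox, off Dox at 48 hours, off Dox at 96 hours, and the same with PD0325901.

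**Figure D3:**
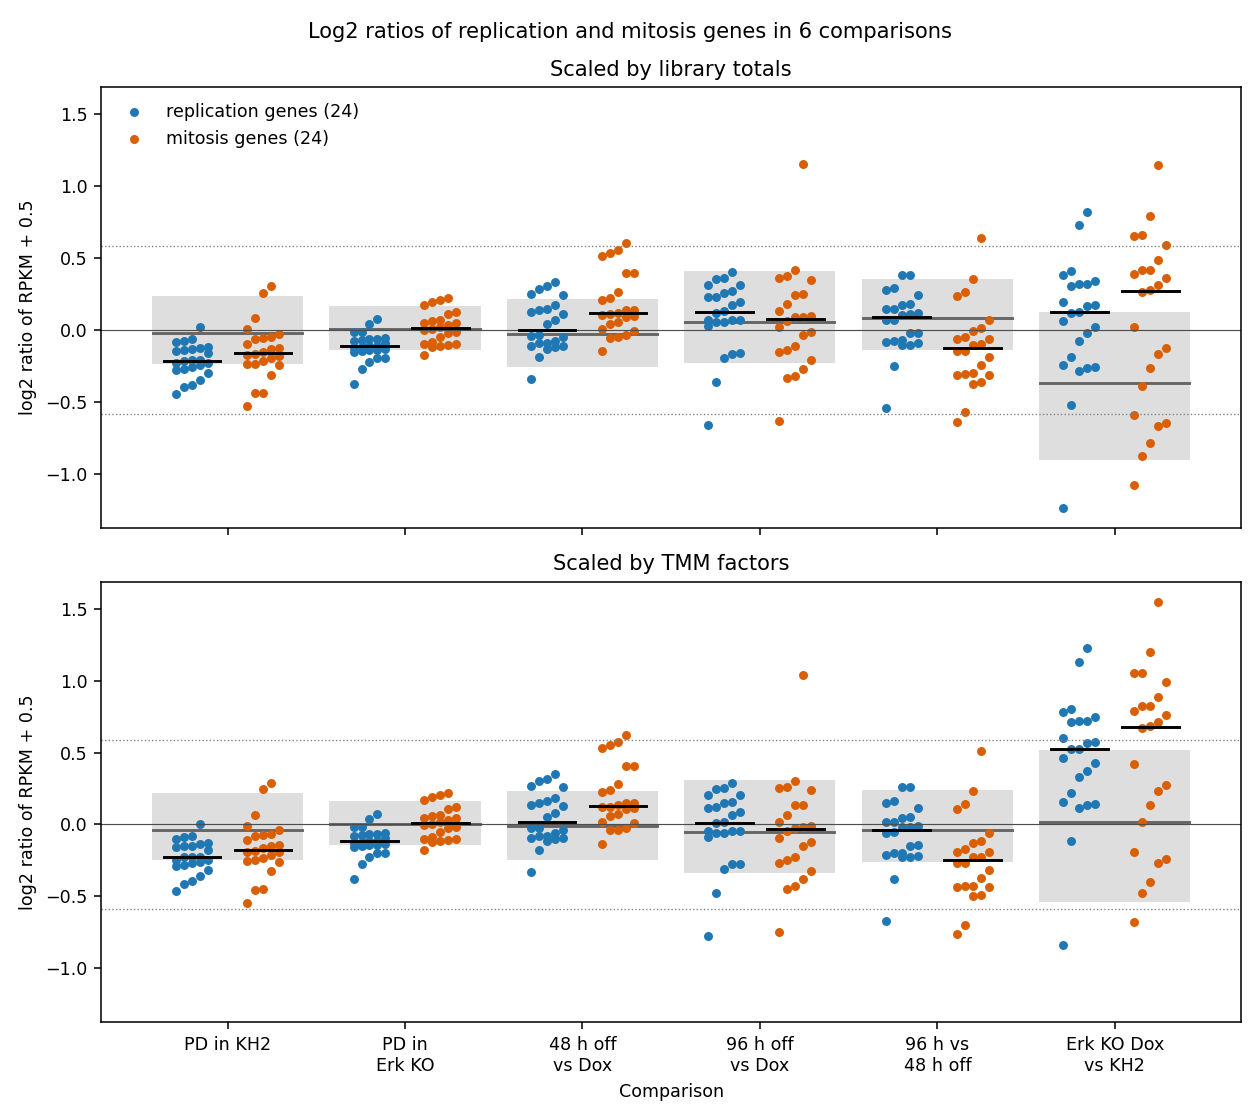
Log2 ratio of RPKM + 0.5 (y axis) for each of the 24 replication (blue) and 24 mitosis (orange) genes in each of 6 comparisons (x axis), on library totals above and TMM factors below. Black lines are the medians of the groups, the grey box and line the middle 50% and median of all genes tested, and dotted lines 1.5-fold. With PD0325901 in KH2 cells most points lie below 0 and none reaches 1.5-fold. In Erk KO cells with Dox against KH2, the median of all genes is -0.37 on library totals and 0.02 with TMM factors.

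The first question was what 48 hours of Mek inhibition did to these genes in wild-type KH2 cells. No replication gene and no mitosis gene differed by 1.5-fold in either direction, where 14.5% of 12787 genes tested did and 5.11% were lower. The differences were small but leaned 1 way. Of the 24 replication genes, 23 had a log2 ratio below 0, with a median of -0.21, and for 19 the interval lay wholly below 1. Of the 24 mitosis genes, 20 were below 0, with a median of -0.16, and 15 had an interval below 1. Among all genes tested, 52.7% were below 0 and 25.8% had an interval below 1. Genes with many reads, such as these, have narrow intervals.

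Among the replication genes, the lowest ratios with PD0325901 in KH2 belonged to Rfc4 and Pole. Rfc4, a subunit of the clamp loader that places Pcna on DNA, read 62.6, 45.7, 26.2, 23.9, 31.4 and 24.1 RPKM. It was 1.37-fold lower (95% interval 1.22 to 1.54) with PD0325901 in KH2, and lower with PD0325901 in both pairs of libraries. Pole, the catalytic subunit of the leading-strand polymerase, read 28.7, 21.7, 23.5, 22.6, 25.5 and 24.2 RPKM, 1.33-fold lower (95% interval 1.24 to 1.42) with the inhibitor in KH2. The KH2 pair spans its full range, with the treated library the lowest of the 6. Cdc45, the helicase activator, was the exception above 0, at 25.2, 25.5, 26.3, 23.0, 30.1 and 31.8 RPKM and 1.01-fold higher (95% interval 0.894 to 1.15). Mcm7, a helicase subunit, was next at 168, 160.0, 182, 173, 191 and 173 RPKM and 1.05-fold lower (95% interval 0.999 to 1.10). The intervals of both include 1.

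Among the mitosis genes, the checkpoint kinases had the lowest ratios. Ttk, the kinase Mps1 that starts the spindle checkpoint, read 38.0, 26.1, 34.8, 31.4, 30.0 and 28.2 RPKM and was 1.45-fold lower (95% interval 1.32 to 1.60) in treated KH2 cells. Bub1, its partner kinase at the kinetochore, read 67.2, 49.4, 44.3, 44.1, 56.5 and 50.05 RPKM and was 1.36-fold lower (95% interval 1.28 to 1.44). For both, the treated KH2 library was below the untreated one by more than the counting error. The 2 highest ratios went the other way. Cyclin B2 (Ccnb2) read 84.9, 105, 75.5, 82.1, 82.6 and 86.3 RPKM and was 1.24-fold higher (95% interval 1.14 to 1.34), and Kif23, the kinesin of the central spindle that is needed for cytokinesis, read 59.1, 70.8, 49.0, 70.3, 109.6 and 124 RPKM and was 1.20-fold higher (95% interval 1.13 to 1.28).

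Other genes of the same processes showed the same small shift in KH2. Of 53 other replication genes tested, none was called, 42 were below 0 and the median was -0.18. Of 98 other mitosis genes, none was called, 73 were below 0 and the median was -0.13. Of 26 regulators of both programmes, 3 were called, all lower. They were cyclin E1 (Ccne1), which drives entry into S phase, from 114 to 61.2 RPKM (1.87-fold), the activating factor E2f2 from 3.76 to 2.003 RPKM (1.88-fold), and the repressor E2f8 from 17.7 to 11.04 RPKM (1.60-fold). Fibroblast markers moved with this comparison: 15 of the 17 tested were called higher, none lower, and their share of reads went from 0.167% to 1.04%. Their part in the result was not tested.

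The same 48 hours of inhibitor were then compared in Erk KO cells that had been without Dox for 96 hours. Again no replication and no mitosis gene was called, where 5.51% of 11920 genes were called and 1.81% called lower. The replication genes still leaned down, with 22 of 24 below 0, a median of -0.11 and 14 intervals below 1, against 48.6% and 15.2% of all genes. The mitosis genes did not lean, with 11 below 0 and 13 above, a median of 0.01, 4 intervals below 1 and 6 above. The fibroblast markers moved here too: 12 of 16 tested were called higher, none lower, and their share of reads went from 0.0685% to 0.352%. Their part in the result was not tested.

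Rfc4 again had the lowest ratio of the replication genes, 1.30-fold lower (95% interval 1.12 to 1.52) with the inhibitor. Gmnn, which encodes geminin, the inhibitor of Cdt1, followed at 80.5, 69.4, 56.0, 60.5, 74.1 and 61.1 RPKM and 1.21-fold lower (95% interval 1.09 to 1.35). Treated cells were below untreated ones in both pairs for both genes. Cdc45 at 1.06-fold higher (95% interval 0.947 to 1.18) and Mcm3 at 1.03-fold higher (95% interval 0.992 to 1.07) had the highest ratios, with intervals that include 1. Mcm3 read 168, 143, 171, 189, 177 and 183 RPKM, so its treated library was the lowest of the 6 in KH2 and the second highest in Erk KO cells.

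Of the mitosis genes, the Aurora kinase Aurka, which builds spindle poles, had the highest ratio at 62.2, 59.5, 83.2, 97.2, 75.5 and 88.3 RPKM and 1.17-fold higher (95% interval 1.09 to 1.26) with PD0325901 in Erk KO cells. Ube2c, which supplies ubiquitin to the anaphase-promoting complex, read 146, 141, 177, 257, 173 and 199.9 RPKM and was 1.16-fold higher (95% interval 1.08 to 1.24). Both had treated KH2 values just under the untreated ones. Bub1 was again low, 1.13-fold lower (95% interval 1.07 to 1.20), and Mad2l1, the checkpoint protein Mad2, read 43.6, 32.0, 97.0, 97.3, 62.3 and 57.4 RPKM and was 1.09-fold lower (95% interval 0.995 to 1.19), an interval that includes 1. Of 53 other replication genes none was called, with 38 below 0 and a median of -0.06. Of 98 other mitosis genes none was called, with 49 on each side of 0. Of the 26 regulators, E2f2 (2.08-fold) and E2f8 (1.57-fold) were called lower and none higher.

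The effect of PD0325901 shared by both pairs is the one comparison here that allows a test, with 4 libraries and the cell state as a block. By the quasi-likelihood test of edgeR, with p-values adjusted by Benjamini and Hochberg over 14782 genes, 1 of the 48 genes changed. Rfc4 fell by 0.42 on the log2 scale (SE 0.117, adjusted p = 0.0364, lower in 2 of 2 pairs). Over all genes, 894 rose and 432 fell, 8.97% together. Of the 24 replication genes, 23 had an effect below 0, with a median of -0.16, and 7 had an unadjusted p under 0.05. Those 7, all with effects below 0, were Mcm2, Mcm10, Gmnn, Pcna, Rfc4, Pole and Tyms. In the same edgeR fit 3327 of all 14782 genes had an unadjusted p under 0.05, of which 1449 had effects below 0. Of the 24 mitosis genes, 15 were below 0, the median was -0.08 and none passed the adjustment. At an unadjusted p under 0.05 there were 4, with Bub1, Mad2l1 and Ttk below 0 and Kif23 above it. The lowest adjusted p among them was 0.0602, for Bub1, by edgeR.

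Of the 26 regulators 3 fell, beside 8.97% of all genes called in either direction. By the same edgeR test with adjusted p-values, E2f8 fell by 0.66 on the log2 scale (adjusted p = 0.00150), Ccne1 by 0.68 (adjusted p = 0.000718) and E2f2 by 0.97 (adjusted p = 0.00544), each lower in 2 of 2 pairs. Among the other replication genes Orc2, a subunit of the origin recognition complex, fell by 0.44 (edgeR adjusted p = 0.00971). Without the cell-state block and over all 6 libraries none of these 4 calls remained, and with DESeq2 2 of the 3 regulators did but Orc2 did not (adjusted p = 0.118). The first 2 of these settings count differences between untreated cultures as spread, so they cannot decide on these genes. None of the other mitosis genes passed. The same test called 14 of 18 fibroblast markers higher. The test has 1 residual degree of freedom and leans on a spread shared across genes. With DESeq2, none of the 48 passed (Rfc4 adjusted p = 0.418), where 2.98% of all genes did. Rfc4 and Bub1 had an unadjusted p under 0.05 by DESeq2, as did 1340 of 14782 genes.

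Both gene groups were set side by side in the 2 pairs. Of the 24 replication genes, 22 were below 0 in both pairs and 19 were further below 0 in KH2 than in Erk KO cells. Of the 24 mitosis genes, 11 were below 0 in both, 4 above 0 in both and 9 below 0 in KH2 but above 0 in Erk KO cells. The share of all genes with each of these patterns was not computed. Among all genes tested, 52.7% were below 0 in KH2 and 48.6% in Erk KO cells. The Polo kinase Plk1 was among those 9 mitosis genes, at 74.4, 68.0, 75.4, 99.3, 80.3 and 92.1 RPKM. It was 1.09-fold lower (95% interval 1.02 to 1.18) in KH2 and 1.15-fold higher (95% interval 1.07 to 1.22) in Erk KO cells. The difference between these 2 pairs was not itself tested. A related edgeR fit over all 6 libraries, added with the values already known, set the KH2 effect against that of treated Erk KO cells relative to the 48 and 96 hour libraries without Dox together. It gave 0 calls among 15103 genes (0%), none of them in the 48, where 129 genes had an unadjusted p under 0.05 and none of the 48 did. Its contrast is not the pair-to-pair difference listed here. The fit took its spread from the difference between the 48 and 96 hour libraries without Dox, with 1 residual degree of freedom. The SE for Plk1 was 0.395 on the log2 scale. The absence of calls therefore cannot show whether the inhibitor effect differed between cell states.

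**Figure D4:**
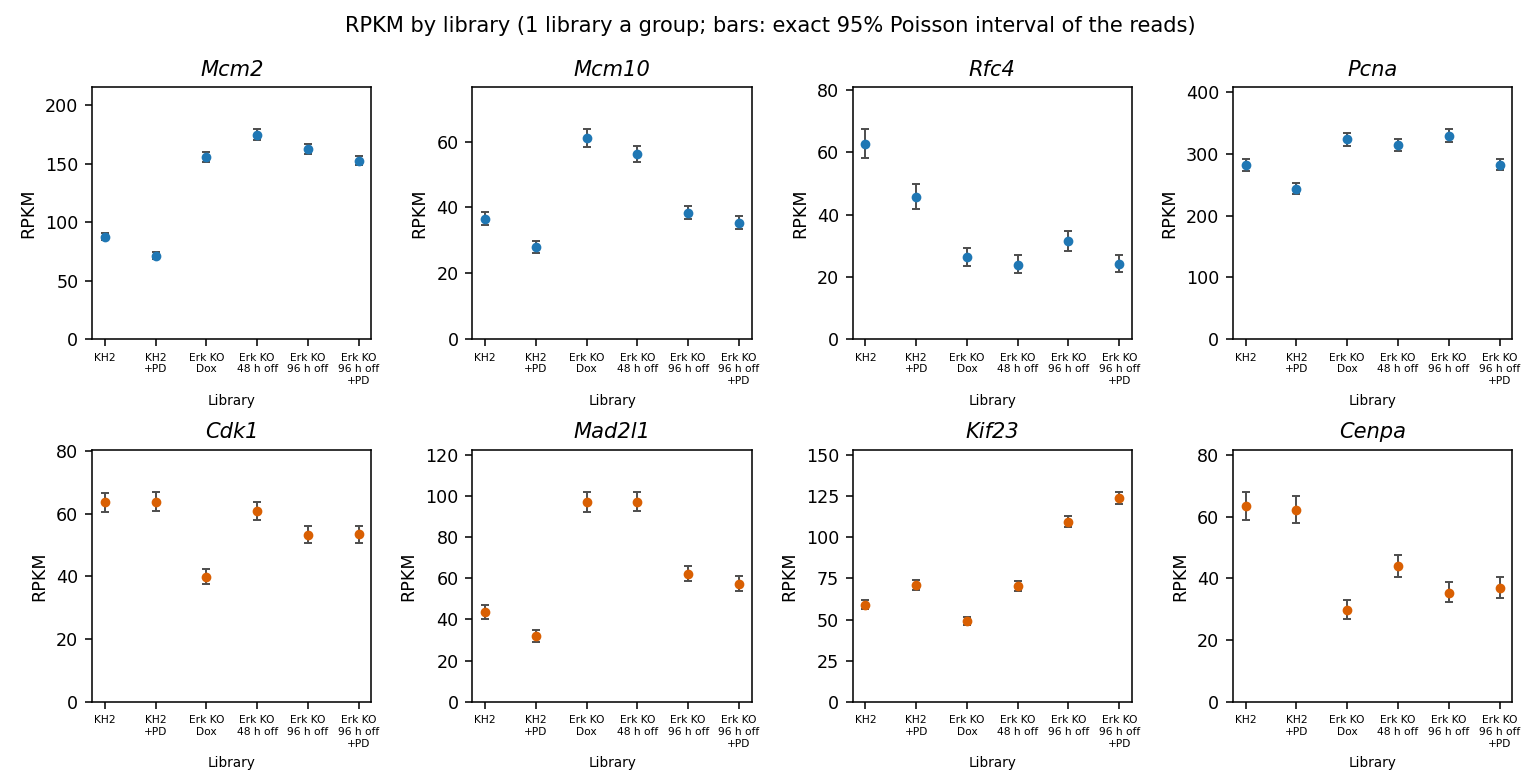
RPKM (y axis) of 8 genes in each of the 6 libraries (x axis), with bars giving the exact 95% counting interval. Mcm2 and Mad2l1 are higher in Erk KO cells with Dox than in KH2, Rfc4 and Cenpa lower, and Kif23 goes from 49.0 RPKM with Dox to 109.6 at 96 hours without it.

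The next question was what happened when Dox, on which the Erk1 transgene depends, was withdrawn from Erk KO cells. Mapk3 stayed above 0 in all 3 libraries without Dox, at 6.75 to 9.18 RPKM against 14.8 with Dox. After 48 hours, 1 of the 48 genes was called: Cdk1, the mitotic kinase, read 63.6, 63.9, 39.9, 60.9, 53.3 and 53.5 RPKM and was 1.53-fold higher (95% interval 1.41 to 1.65) than with Dox. Of all 11386 genes tested, 7.32% were called higher and 7.44% lower, so 1 of 48 is below the background. On library totals Cdk1 was lowest in the Dox library and close to its KH2 level at 48 hours. The TMM factors were 1.18 for untreated KH2 and 0.878 for the 48 hour library, so that closeness depends on the scaling. The mitosis genes as a group leaned up, with 19 of 24 above 0 and 14 with an interval above 1, against 46.8% and 23.5% of all genes. Their median log2 ratio was 0.11. The replication genes did not lean, with 12 above and 12 below 0 and none called. No gene of the 48 reached 2-fold, which 4.89% of all genes did.

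Next to Cdk1 stood Cenpa, the histone that marks the centromere, at 63.4, 62.2, 29.7, 43.9, 35.3 and 37.0 RPKM and 1.48-fold higher (95% interval 1.29 to 1.69). Ube2c was 1.45-fold higher and Kif23 1.43-fold higher, and both Plk1 and cyclin B1 (Ccnb1), the partner of Cdk1, were 1.32-fold higher. These genes act in mitosis, but so do the 5 of 24 mitosis genes that were below 0. Bub1 went from 44.3 to 44.1 RPKM and Bub1b from 95.8 to 92.5. The lowest ratios among the mitosis genes were those of Ttk, 1.11-fold lower (95% interval 1.01 to 1.22), and of the spindle assembly factor Tpx2 at 71.3, 62.9, 112, 108, 101 and 104 RPKM, 1.04-fold lower (95% interval 0.998 to 1.08). Among the replication genes, Orc1 of the origin recognition complex read 29.8, 25.7, 37.2, 47.0, 46.3 and 44.6 RPKM, 1.26-fold higher (95% interval 1.17 to 1.37), and Tyms read 19.2, 16.1, 16.0, 19.8, 18.8 and 16.3 RPKM, 1.24-fold higher (95% interval 1.11 to 1.39). The GINS subunit Gins2 read 41.4, 38.1, 54.1, 42.5, 48.2 and 42.0 RPKM, 1.27-fold lower (95% interval 1.12 to 1.45), and Cdc45 was 1.14-fold lower (95% interval 1.01 to 1.29). Orc1 was above and Gins2 below its Dox level in all 3 libraries without Dox on library totals, whereas Cdc45 was below at 48 hours and above at 96.

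Of 53 other replication genes, 3 were called higher at 48 hours: Rnaseh2b of ribonuclease H2 (1.71-fold), the origin-firing factor Ticrr (1.61-fold) and deoxycytidine kinase Dck (1.52-fold). Orc2 and Mtbp, the partner of Ticrr, were called lower, both 1.52-fold on library totals and neither with TMM factors. Of 98 other mitosis genes, securin Pttg1 (2.41-fold), shugoshin Sgo2a (1.72-fold) and the checkpoint protein Zw10 (1.60-fold) were called higher and none lower. These 98 genes leaned little, with 53 above 0, 45 below and a median of 0.05, and intervals above 1 for 30.6% and below 1 for 22.4%. Of 26 regulators, E2f2 (2.40-fold) and E2f8 (1.63-fold) were called lower. Fibroblast markers took 0.0512% of reads with Dox and 0.0523% without.

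After 96 hours without Dox, 3 of the 48 genes were called against the Dox library. Kif23 went from 49.0 RPKM with Dox to 109.6 without it, 2.24-fold higher (95% interval 2.11 to 2.37), the largest difference among the 48 in this comparison and the 1 past 2-fold, which 9.68% of all genes passed. Mcm10, which recruits polymerase alpha to the helicase, read 36.6, 28.0, 61.0, 56.2, 38.4 and 35.4 RPKM and was 1.59-fold lower (95% interval 1.48 to 1.70). Mad2l1 went from 97.0 to 62.3 RPKM, 1.56-fold lower (95% interval 1.44 to 1.68). Among 11804 genes tested, 16.6% were called higher and 6.68% lower. Kif23 was already above its Dox level at 48 hours, while Mcm10 and Mad2l1 were near theirs at 48 hours and lower at 96.

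The direction of the rest depended on the scaling at 96 hours. On library totals, 19 of 24 replication genes were above 0 (median 0.12) and 14 of 24 mitosis genes (median 0.08), with 54.9% of all genes. With TMM factors, which correct for library composition, 13 replication genes (median 0.01) and 9 mitosis genes (median -0.03) were above 0, with 45.4% of all genes. The 3 calls stood under both scalings. Cdk1, 1.34-fold higher (95% interval 1.24 to 1.45), was still above its Dox level, as was geminin (Gmnn) at 1.32-fold higher (95% interval 1.18 to 1.48). Cdc6, at 16.5, 14.9, 18.1, 21.5, 23.3 and 21.1 RPKM, was 1.29-fold higher (95% interval 1.18 to 1.42). These 3 were above 0 with both scalings. Cdt1, the licensing factor that geminin binds, stood on the other side at 79.3, 67.4, 66.0, 61.1, 51.2 and 50.7 RPKM, 1.29-fold lower (95% interval 1.19 to 1.40). The kinetochore kinesin Cenpe also did, at 22.4, 19.5, 35.7, 34.8, 28.1 and 28.1 RPKM and 1.27-fold lower (95% interval 1.20 to 1.34).

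Of 53 other replication genes at 96 hours, Rnaseh2b was called higher (2.05-fold) and Dbf4, the activator of the Cdc7 kinase, lower (1.57-fold), and with TMM factors 1 was higher and 3 lower. Of 98 other mitosis genes, 5 were called higher and 2 lower on library totals, but 3 higher and 5 lower with TMM factors and 3 and 8 with median-of-ratios factors. Securin Pttg1 (2.15-fold), Sgo2a (1.90-fold) and the kinesin Kifc1 (1.88-fold) had the highest ratios. The 2 called lower were Cenpk and Troap, both 1.60-fold. The regulators included retinoblastoma Rb1 (1.98-fold) and Tfdp2 (1.84-fold), called higher. E2f4 (1.74-fold), E2f8 (1.66-fold) and Tfdp1 (1.62-fold) were called lower. With TMM factors the 26 regulators held 2 calls higher and 7 lower. At 96 hours, 7 of 16 fibroblast markers tested were called higher and 1 lower than with Dox, and their part in these results was not tested.

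The 96 hour library was also compared with the 48 hour library, which shows what came later in withdrawal. It shares libraries with both comparisons above and is no independent measurement of them. The mitosis genes leaned down, with 18 of 24 below 0 and a median of -0.13, against 40.3% of all genes. With TMM factors 20 of 24 were below 0, against 54.5%. Kif23, 1.56-fold higher (95% interval 1.48 to 1.64), and Mad2l1, 1.56-fold lower (95% interval 1.44 to 1.69), were called, where 12.2% of 11722 genes were called higher and 2.33% lower. None of the 48 passed 2-fold, which 5.02% of all genes did. The replication genes had 14 above 0, a median of 0.09 (-0.04 with TMM factors) and none called.

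The scaling moved 3 of these calls. With TMM factors Kif23, at a log2 ratio of 0.51, was no longer called, and Ube2c and Mcm10 were called lower, where 4.57% of all genes were. On library totals, Ube2c was 1.49-fold lower (95% interval 1.40 to 1.59) and Mcm10 1.46-fold lower (95% interval 1.36 to 1.57). Ube2c was thus highest at 48 hours and back near its Dox level at 96. Cdt1 was 1.19-fold lower, Cdc45 1.31-fold higher, Rfc4 1.31-fold higher and Bub1 1.28-fold higher. None of 53 other replication genes was called. Of 98 other mitosis genes Troap (1.68-fold) and the centromere protein Cenpm (1.59-fold) were called lower. Of the 26 regulators, Rb1 (1.82-fold), E2f2 (1.95-fold) and Rbl2 (1.77-fold) led 4 called higher (2 with TMM factors), and Lin37 of the DREAM complex (1.74-fold) and Foxm1, an activator of mitosis genes (1.52-fold), were called lower. Of 16 fibroblast markers tested, 7 were called higher and 1 lower, and their part in this comparison was not tested.

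The last comparison set Erk KO cells kept on Dox against untreated KH2 cells, 2 cultures that differ in genotype and Dox at once. Both gene groups had medians above that of all genes in the Erk KO cells, as did the other lists except the fibroblast markers. The median of the fibroblast markers was lower, at -1.19 on library totals. On library totals the median log2 ratio of all 12421 genes tested was -0.37, and 22 of 24 replication genes and 17 of 24 mitosis genes lay above it. The medians of the groups were 0.12 and 0.27. With TMM factors the median of all genes was 0.02 and those of the groups 0.52 and 0.68, a shift of about 0.4 for every gene. The distance from the median of all genes was close on both scalings, 0.49 and 0.50 for replication genes and 0.64 and 0.66 for mitosis genes. On library totals it was 0.42 for other replication genes, 0.43 for other mitosis genes, 0.48 for regulators and 0.50 for the 10 ESC markers, so it is not particular to the 48 genes.

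The calls depended on that shift. On library totals 2 replication genes were called higher and 1 lower, and 5 mitosis genes higher and 6 lower, where 8.61% of all genes were called higher and 38.7% lower. With TMM factors 9 replication genes were called higher and 1 lower, and 13 mitosis genes higher and 1 lower, where 21.5% of all genes were called higher and 22.8% lower. At 2-fold on library totals, 3 of the 48 were called, where 24.2% of all genes were. Fibroblast markers differed too, 12 of 16 tested called lower in the Erk KO library. Their part in the result was not tested.

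Mcm2 had the highest ratio of the replication genes, at 87.8, 71.1, 156, 175, 163 and 153 RPKM and 1.77-fold higher (95% interval 1.69 to 1.86) in the Erk KO cells. Mcm10 was 1.67-fold higher (95% interval 1.55 to 1.79). All 4 Erk KO libraries were above both KH2 libraries for Mcm2 under both scalings. For Mcm10 this held with TMM factors, while on library totals its level at 96 hours without Dox was close to that of untreated KH2. Rfc4 was 2.38-fold lower (95% interval 2.08 to 2.74), with no overlap between the 4 Erk KO and the 2 KH2 libraries, and it was called under both scalings. Gmnn was 1.44-fold lower (95% interval 1.28 to 1.61), short of a call.

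Of the mitosis genes, Mad2l1 was 2.23-fold higher (95% interval 2.03 to 2.44) in Erk KO cells with Dox and above both KH2 libraries in all 4 Erk KO libraries. The spindle motor Kif11 read 59.4, 51.0, 103, 111, 111 and 102 RPKM and was 1.74-fold higher (95% interval 1.66 to 1.83), with no overlap either. Tpx2 (1.57-fold higher), Cenpe (1.59-fold higher) and Ccna2, at 87.6, 77.5, 132, 136, 109 and 112 RPKM (1.51-fold higher), were also called higher under both scalings. Cenpa was 2.13-fold lower (95% interval 1.88 to 2.42), the lowest ratio of the group, and called under both scalings. The Aurora kinase Aurkb, which corrects faulty attachments, read 47.4, 42.6, 25.5, 28.1, 33.2 and 32.8 RPKM and was 1.86-fold lower (95% interval 1.66 to 2.08). Cdc25c, the phosphatase that activates Cdk1, read 17.1, 13.7, 9.69, 10.4, 9.57 and 8.91 RPKM and was 1.77-fold lower (95% interval 1.46 to 2.14). Ccnb1 read 179, 159.5, 114, 151, 136 and 127 RPKM and was 1.57-fold lower, Cdk1 was 1.60-fold lower and Bub1 1.52-fold lower. With TMM factors these last 5 were at log2 ratios from -0.48 (Aurkb) to -0.19 (Bub1) and not called. Cdk1, Ccnb1 and Cdc25c were thus called lower on library totals but not with TMM factors. On library totals 38.7% of all genes were called lower as well. Cyclin B2 (Ccnb2) read 84.9 RPKM in untreated KH2 and 75.5 in Erk KO cells with Dox, short of 1.5-fold. Whether the kinase, its cyclins and its activator moved as a group was not tested.

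Across all 6 libraries, 13 of 24 replication and 14 of 24 mitosis genes were higher in all 4 Erk KO libraries than in both KH2 libraries on library totals, against 14.8% of 13222 genes. The reverse held for Cdt1 and Rfc4 and for Ccnb1, Cdk1, Cdc25c, Aurkb and Cenpa, against 43.6%. With TMM factors the counts were 20 and 14 genes higher, against 28.3% of genes, and Rfc4, Aurkb and Cenpa lower, against 25.8%. Treated and untreated libraries are mixed within each side here, and the 4 Erk KO libraries come from 1 line.

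Among the 53 other replication genes in this comparison, 8 were called higher and 2 lower on library totals, and 18 and 0 with TMM factors. Topoisomerase Top1 (2.28-fold) and the polymerase subunits Pold3 (2.09-fold) and Pole3 (2.03-fold) led those higher. Pold1 (1.76-fold) and Rpa2 (1.61-fold) were lower. Among 98 other mitosis genes, 13 were called higher and 10 lower, and 39 and 3 with TMM factors. The kinetochore genes Ska1 (3.61-fold) and Cenpk (2.69-fold) and the ubiquitin ligase subunit Anapc10 (2.52-fold) led those higher. Cenpw (2.25-fold), Kifc1 (2.11-fold) and Cdc25b (2.08-fold) led those lower. Of 26 regulators, 2 were called higher and 4 lower, and 11 and 2 with TMM factors. Lin9 (1.87-fold) and E2f8 (1.64-fold) were higher, and Rb1 (2.84-fold) and E2f1 (2.06-fold) lower under both scalings.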

How the data were processed

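Messenger RNA from 6 cultures was read as single-end 50-base reads, per the labels' protocols. The authors deposited, for each library, a count of uniquely mapped reads per gene and RPKM on gene lengths of mouse build mm9 (build per the submitters' processing notes). The deposited coverage percent per gene was used to describe the genes. The aligner and the use of strand are not given in the sources used here. Here the 6 tables were joined by gene ID (18857 genes), with a missing row taken as 0 reads.

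The 48 genes and all gene lists were chosen with earlier results of these data known. Levels in all 6 libraries were printed for called genes (up to 8 per group and comparison) and for the 2 highest and 2 lowest per group and comparison with at least 100 reads. Plk1 was added after its values were seen. Other genes were named only if called and among the 3 of largest size per list and direction.

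Ratios used RPKM with a pseudocount of 0.5 and exact 95% Clopper-Pearson intervals on reads; without molecular identifiers these cover counting error only. Alternatives were TMM and median-of-ratios scaling, pseudocounts of 0.1 and 1, no filter and a 2-fold limit. The shared PD0325901 effect was tested across all genes with edgeR 4.0.16 (quasi-likelihood, TMM, cell-state block, Benjamini-Hochberg at 0.05) and, as an alternative, DESeq2 1.42.0 in R 4.3.3. A further edgeR fit over 6 libraries, pooling both untreated cultures off Dox, was added after the data were seen. Scripts were tested on simulated data. No replicate was available, so p-values rest on 1 residual degree of freedom among libraries. RefSeq promoters (GRCm38.p6) were matched by symbol for 38 of 48 genes.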

Additional observations from a re-analysis of the deposited data

Results flagged for a closer look

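Plk1, the Polo kinase that drives entry into mitosis, had log2 ratios of opposite sign with PD0325901: -0.13 in KH2 cells and 0.20 in Erk KO cells. The counting interval excluded 1 in both pairs. With 1 library on each side of each pair the sign rests on single cultures. The difference between the pairs was not tested.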

How the results depend on the processing

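The number of the 48 genes called kept within 1.5 times of its value in all 12 combinations of gene group and comparison with either other pseudocount and without the filter on low values, and in 10 of 12 with TMM factors and with median-of-ratios factors. Between 96 and 48 hours, 1 replication gene was called with TMM factors and 1 with median-of-ratios factors, against 0. Between Erk KO cells with Dox and KH2, 10 and 12 replication genes were called with these factors, against 3. At 2-fold, the mitosis genes held 0 calls at 48 hours, 1 at 96 hours, 0 between 96 and 48 hours and 2 in the comparison with KH2, and the replication genes 0 at 96 hours and 1 in the comparison with KH2. No direction reversed among the genes called. These counts join both directions, and the split between them moved with TMM factors for mitosis genes. Against KH2 it went from 5 higher and 6 lower to 13 higher and 1 lower. Between 96 and 48 hours it went from 1 higher and 1 lower to 0 higher and 2 lower. The ratios themselves moved more than the counts. With TMM factors, 113 single-gene log2 ratios shifted by at least the half-width of their counting interval and 175 did not. With median-of-ratios factors 123 did and 165 did not. Of the group medians, 6 moved and 6 did not with either scaling, by the median half-width.

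The shared PD0325901 effect was less stable. Using library totals alone, 3 of the 48 genes were called (Rfc4, Bub1 and Ttk, all lower). Without the cell-state block, with all 6 libraries in 3 states and with DESeq2, 0 were called by adjusted p, where the adjusted p of Rfc4 was 1.0, 0.471 and 0.418. At an unadjusted p under 0.05 these 3 settings held 0, 1 and 2 of the 48, and 270, 1690 and 1340 of all genes. Over all genes the 4 settings called 1995, 0, 118 and 441, against 1326. Without the filter on low counts Rfc4 alone was called (adjusted p = 0.0432). The cause was not tested.

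The labels carry no replicate numbers, so beyond the cell-state block no pairing by replicate could be fitted, and no library could be left out because each condition has 1. Depth limits the lowest gene, Cdc25c, most: its 170 or more reads per library give an interval of 1.46 to 2.14 around a 1.77-fold difference. Differences under about 1.1-fold were often within counting error, and the spread between cultures is not known.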
